A study of Mus musculus with 16 samples.

Results

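The 10 genes described here are immediate early genes of the AP-1, EGR and dual specificity phosphatase families, measured in whole pancreatic tumours of mice given ADH-503, a small molecule agonist of the integrin CD11b. They are Fos, Fosb, Fosl1, Jun, Junb, Jund, Atf3, Egr1, Egr2 and Dusp1, and they were taken by gene symbol from the annotation of the deposited array table. They account for 14 of 56605 probes and 10 of 37006 genes on the array, and all 10 are among the 30580 genes tested. RNA came from tumours of an orthotopic model in female C57BL/6 mice, in which tumour cells are placed in the pancreas. Of 16 samples, 5 were labelled 10 days of ADH-503, 5 were labelled 48 h of ADH-503, and 6 were labelled vehicle. The titles of the treated samples call the compound LA1, and the vehicle samples carry no time, so the age of their tumours is not known. The labels name neither the tumour line nor the dose or route.

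Immediate early genes are transcribed within minutes of a signal at the cell surface, without new protein synthesis, from promoters that the kinases ERK, JNK and p38 reach through bound factors such as SRF, the ternary complex factors and CREB. FOS and JUN proteins pair through leucine zippers to form the transcription factor AP-1, EGR proteins bind GC-rich DNA through zinc fingers, and DUSP1 removes phosphate from p38 and JNK, which closes a feedback loop. In tumours these genes follow growth factor signalling and tissue stress, and handling of fresh tissue also induces them.

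Promoters of 5 members are shown, with matches to sites known in inducible genes, or to a core promoter box, marked. Promoters of 8 of the 10 members, all but Fosl1 and Egr1, were searched in the RefSeq promoter table on GRCm38.p6. Each stretch below is the 200 bases before the annotated start, written 5′ to 3′ on the strand of the gene. Capitals mark matches, on either strand, to TGACNTCA (a CRE-like site), TNACGTCA (an ATF site), TGANTCA (an AP-1 site), GCGNGGGCG (an EGR site), TATAAA (the core promoter box of many inducible genes) or the CArG box bound by SRF.
Egr2, chr10:67537669-67537868, plus strand: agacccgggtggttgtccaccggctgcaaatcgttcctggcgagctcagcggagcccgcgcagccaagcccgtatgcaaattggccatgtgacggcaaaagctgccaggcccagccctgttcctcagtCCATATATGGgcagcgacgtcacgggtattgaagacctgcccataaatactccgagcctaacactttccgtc
Dusp1, chr17:26508473-26508672, minus strand: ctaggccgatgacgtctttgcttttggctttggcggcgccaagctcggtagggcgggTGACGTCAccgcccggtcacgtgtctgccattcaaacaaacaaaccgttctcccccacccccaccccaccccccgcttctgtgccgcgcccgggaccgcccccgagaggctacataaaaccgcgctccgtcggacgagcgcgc
Atf3, chr1:191183334-191183533, minus strand: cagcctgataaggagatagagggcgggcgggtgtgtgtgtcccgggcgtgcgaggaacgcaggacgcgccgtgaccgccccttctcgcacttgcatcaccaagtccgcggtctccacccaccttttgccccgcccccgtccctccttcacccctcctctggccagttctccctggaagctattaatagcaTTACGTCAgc
Fos, chr12:85473690-85473889, plus strand: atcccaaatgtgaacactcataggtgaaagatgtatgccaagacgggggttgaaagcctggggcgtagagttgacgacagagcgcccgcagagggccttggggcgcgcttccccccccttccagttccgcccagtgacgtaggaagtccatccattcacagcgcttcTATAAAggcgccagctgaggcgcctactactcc
Jun, chr4:95052223-95052422, minus strand: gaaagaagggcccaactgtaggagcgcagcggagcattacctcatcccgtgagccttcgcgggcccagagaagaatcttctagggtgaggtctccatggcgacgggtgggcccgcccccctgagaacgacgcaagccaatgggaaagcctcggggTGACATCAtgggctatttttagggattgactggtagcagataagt

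Egr2 has 5 listed starts, and the middle one by position is shown. Its capitals are a CArG box, those of Dusp1 a site that fits both TGACNTCA and TNACGTCA, those of Atf3 an ATF site, those of Fos a TATAAA match and those of Jun a CRE-like site. Over the whole 300-base windows of the table, which reach 50 bases past the start, TGACNTCA stood in 2 of the 8 members and in 8.83% of all 32851 listed promoters. TNACGTCA stood in 2 members and 2.93% of promoters, the CArG box in 1 member and 1.63%, GCGNGGGCG in 1 member, Fosb, and 5.55%, TATAAA in 2 members, Fos and Junb, and 13.6%, and TGANTCA in 0 members and 7.81%. The TATAAA match of Fos lay at bases -33 to -28 from the start, and that of Junb at bases 1 to 6 past it. A member was counted if any of its listed starts had a match, while the percentages are per listed promoter, so the units differ. A match describes letters in this window, and no binding was measured.

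Signals are given as log2 signal relative to the 75th percentile of each array, which lay between 4953 and 6736 units of processed signal. Between 74.9% and 81.2% of probes were well above background on an array, and all 14 member probes were well above background on all 16 arrays. Over genes, pairs of arrays had r between 0.942 and 0.976. The arrays lie on 2 slides of 8: slide 1 holds 3 arrays of 10 days, 4 of 48 h and 1 of vehicle, and slide 2 holds 2 of 10 days, 1 of 48 h and 5 of vehicle. Vehicle replicate 2 and 48 h replicate 5 carry the same ID number in their titles, and results are also given without them. Nothing states that samples came from separate animals, so p-values measure the spread between these samples, which may be technical. All 12 markers of ductal and tumour epithelium were well above background on all arrays, as were all 10 macrophage markers and all 10 granulocyte markers, while 14 of 15 acinar markers were. In whole tumour RNA, fewer cells of a type and less RNA per cell cannot be told apart.

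No member passed the test in any comparison. In limma with Benjamini-Hochberg adjustment over 30580 genes, adjusted p was at least 0.9999 for each of the 10 members at 10 days against vehicle, at 48 h against vehicle and at 10 days against 48 h. Across all genes 0% passed in each of the 3 comparisons, and the smallest adjusted p over all genes was 0.760 at 10 days against vehicle and 0.382 at 10 days against 48 h. At 10 days 9 of 10 members had lower values than in vehicle tumours, with a median log2 fold change of -0.21, while 52% of all genes were lower, with a median of -0.01. At 48 h 6 of 10 members were lower than in vehicle, with a median of -0.04, while 53.3% of all genes were lower. All 10 members were lower at 10 days than at 48 h, with a median of -0.13, against 48.9% of all genes. The 2 comparisons with the 10 day arrays share those arrays, and both comparisons against vehicle share the vehicle arrays. For every member the groups overlapped in each comparison; over all genes the groups did not overlap for 0.213%, 0.141% and 0.504% at 10 days against vehicle, 48 h against vehicle and 10 days against 48 h.

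**Figure D1:**
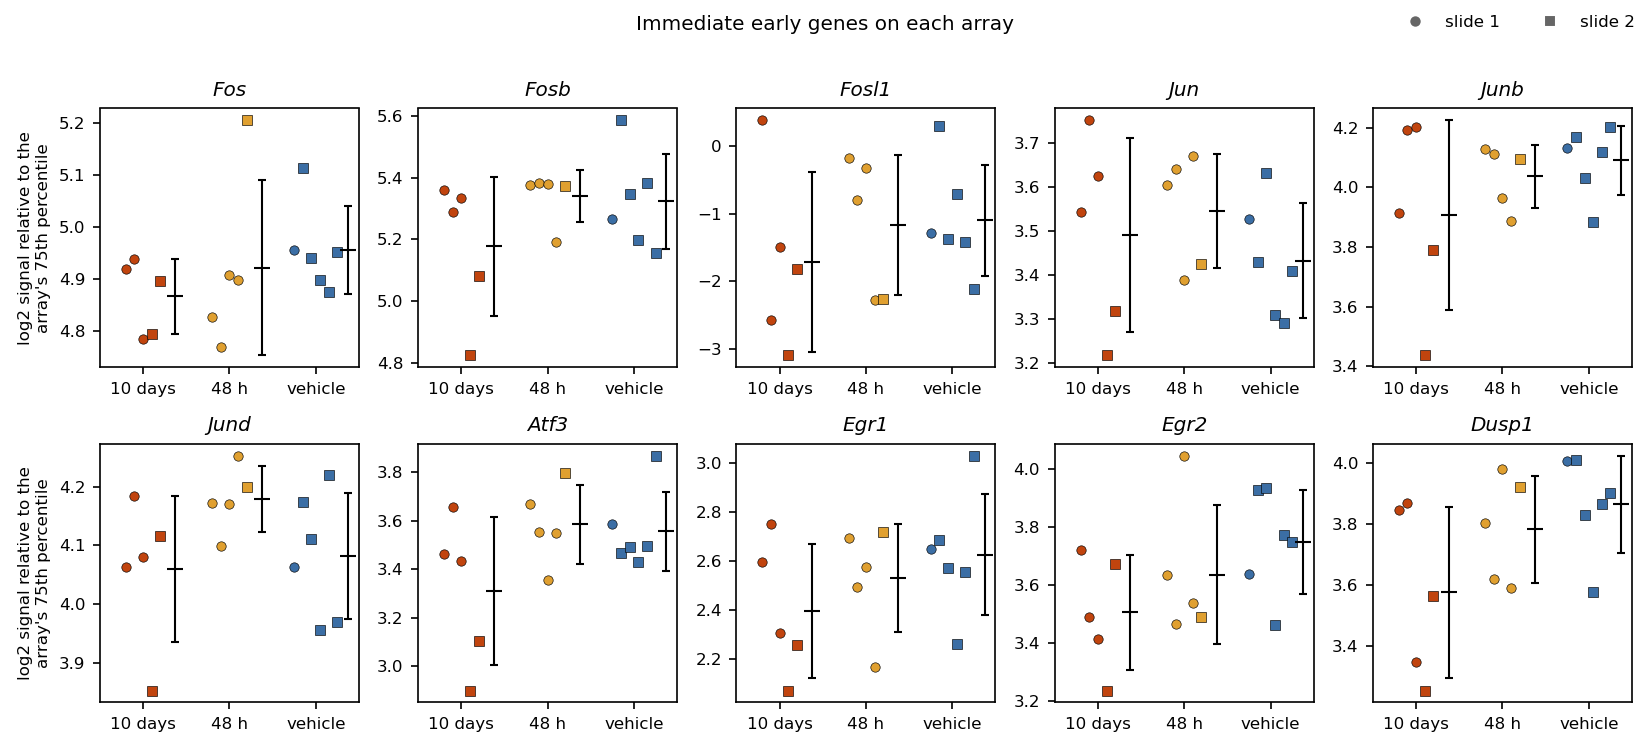
Level of each of the 10 genes on each array, as log2 signal relative to the array's 75th percentile, for 5 samples at 10 days, 5 at 48 h and 6 of vehicle. Circles are slide 1 and squares slide 2, and bars show mean and SD. Groups overlap for every gene, and 10 day replicate 4 is the lowest of 16 arrays for 9 of the 10 genes, each by its brightest probe.

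Dusp1, the phosphatase of p38 and JNK, had the smallest p of the members. Its probe lies at chr17:26642624-26642683 on mouse build mm9, the build of all probe positions given here. The values were 3.85, 3.87, 3.35, 3.25 and 3.56 at 10 days and 3.81, 3.62, 3.98, 3.59 and 3.92 at 48 h, and the vehicle arrays ran from 3.58 through a median of 3.88 to 4.01. Replicates 1 and 2 at 10 days sat near the vehicle median, and replicates 3, 4 and 5 lay below every vehicle array. Against vehicle the log2 fold change at 10 days was -0.29 ± 0.13 (SE), with a 95% interval from -0.57 to -0.0033, that is a level between 0.672 and 0.998 times that of vehicle. Unadjusted p in limma was 0.0477, and the exact 2-sided permutation test gave p = 0.0649 (n = 5 and 6), where the smallest possible p was 0.00216. It was the only member with an unadjusted p under 0.05 at 10 days and lower than vehicle, while 1.78% of all genes met that limit lower and 1.76% higher. At 48 h against vehicle the log2 fold change was -0.08 ± 0.13 (SE). No member had an unadjusted p under 0.05 there, against 1.69% of all genes lower and 0.87% higher, nor at 10 days against 48 h, against 1.16% lower and 2.32% higher.

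Egr2 encodes a zinc finger transcription factor best known in myelinating Schwann cells and in macrophages and T cells. Its probe at chr10:67004758-67004817 read 3.72, 3.49, 3.41, 3.23 and 3.67 at 10 days, then 3.63, 3.47, 4.05, 3.54 and 3.49 at 48 h, against vehicle values from 3.46 through a median of 3.76 to 3.93. All 5 arrays at 10 days lay below the vehicle mean, replicates 3 and 4 also below the lowest vehicle array, and the other 3 inside the vehicle range. The log2 fold change was -0.24 ± 0.13 (SE; 95% interval -0.52 to 0.04) at 10 days and -0.11 ± 0.13 (SE) at 48 h, both against vehicle, with an exact permutation p of 0.0649 at 10 days (n = 5 and 6).

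Egr1, a zinc finger factor induced by growth factors through SRF, read 2.60, 2.75, 2.30, 2.07 and 2.25 at 10 days and 2.69, 2.49, 2.57, 2.17 and 2.72 at 48 h. Vehicle arrays ran from 2.26 through 2.61 to 3.03. Replicates 4 and 5 at 10 days lay below the lowest vehicle array and replicate 2 above the vehicle median. Against vehicle the log2 fold change was -0.23 ± 0.15 (SE; 95% interval -0.56 to 0.10) at 10 days and -0.10 ± 0.15 (SE) at 48 h.

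Atf3 encodes a bZIP factor that pairs with JUN proteins and is induced by many stresses. At chr1:192994547-192994606 it read 3.46, 3.66, 3.43, 2.90 and 3.10 at 10 days and 3.67, 3.55, 3.36, 3.55 and 3.80 at 48 h, and the vehicle arrays ran from 3.43 through 3.49 to 3.87. The 3 slide 1 arrays at 10 days fell among the vehicle arrays, while replicates 4 and 5, both on slide 2, were the lowest of all 16. Log2 fold changes were -0.24 ± 0.14 (SE; 95% interval -0.54 to 0.05) at 10 days against vehicle, 0.03 ± 0.14 (SE) at 48 h against vehicle and -0.27 ± 0.14 (SE) at 10 days against 48 h.

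Fos and Fosb encode FOS family partners of JUN. Fos, at chr12:86818118-86818177, read 4.92, 4.94, 4.79, 4.79 and 4.90 at 10 days and 4.83, 4.77, 4.91, 4.90 and 5.20 at 48 h, with vehicle arrays from 4.87 through 4.95 to 5.11. Its spread was small: the SD within groups was 0.116, lower than that of all but 1.66% of genes tested, where the median gene had 0.326. This rank, like those of Jund and Fosl1 below, is over genes of all signal levels. Spread was not compared among genes of like signal. For Fos the interval for 10 days against vehicle ran from 0.821 to 1.08 times the vehicle level, around a log2 fold change of -0.09 ± 0.09 (SE). Fosb, at chr7:19888168-19888227, read 5.36, 5.29, 5.33, 4.82 and 5.08 at 10 days and 5.38, 5.38, 5.38, 5.19 and 5.37 at 48 h, with vehicle arrays from 5.16 through 5.31 to 5.59. Only replicates 4 and 5 at 10 days lay below the vehicle arrays, and the log2 fold change against vehicle was -0.15 ± 0.11 (SE) at 10 days and 0.02 ± 0.11 (SE) at 48 h.

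Jun, Junb and Jund encode the JUN family; JUN and JUNB are inducible, and JUND is present in most resting cells. Jun, at chr4:94716928-94716987, was the only member with a higher mean at 10 days than in vehicle, 3.49 ± 0.22 (SD, n = 5) against 3.43 ± 0.13 (SD, n = 6), with 3.55 ± 0.13 (SD, n = 5) at 48 h. Its interval for 10 days ran from 0.881 to 1.23 times vehicle. Junb, by its brightest probe at chr8:87501881-87501940, read 3.92, 4.19, 4.20, 3.44 and 3.79 at 10 days and 4.13, 4.11, 3.97, 3.89 and 4.10 at 48 h, with vehicle arrays from 3.89 through 4.13 to 4.20. By this probe replicates 4 and 5 at 10 days were again below every vehicle array, and the log2 fold change was -0.18 ± 0.13 (SE). By the probe 1038 bases from it, annotated to the same transcript, they read 3.73 and 3.85, inside the vehicle range of 3.52 to 4.04. On that probe replicate 3 was the lowest at 10 days, at 3.38. Jund, at chr8:73224302-73224361, had the smallest spread, with an SD within groups of 0.10, lower than that of all but 0.602% of genes tested. It averaged 4.06 ± 0.12 at 10 days (SD, n = 5), 4.18 ± 0.06 at 48 h (SD, n = 5) and 4.08 ± 0.11 in vehicle (SD, n = 6). All 5 arrays at 48 h lay above the vehicle mean, and the log2 fold change at 48 h was 0.10 ± 0.09 (SE).

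Fosl1 encodes FRA1, a FOS family protein that epithelial tumours with RAS signalling are known to express. At chr19:5455496-5455555 it read 0.37, -2.56, -1.49, -3.09 and -1.82 at 10 days and -0.19, -0.81, -0.33, -2.27 and -2.26 at 48 h, and vehicle arrays ran from -2.11 through -1.33 to 0.30. Arrays of every group were spread over several log2 units, the SD within groups was 1.08, and 93.1% of genes tested varied less. The log2 fold change at 10 days against vehicle was -0.62 ± 0.60 (SE), with a 95% interval from 0.268 to 1.58 times the vehicle level.

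**Figure D2:**
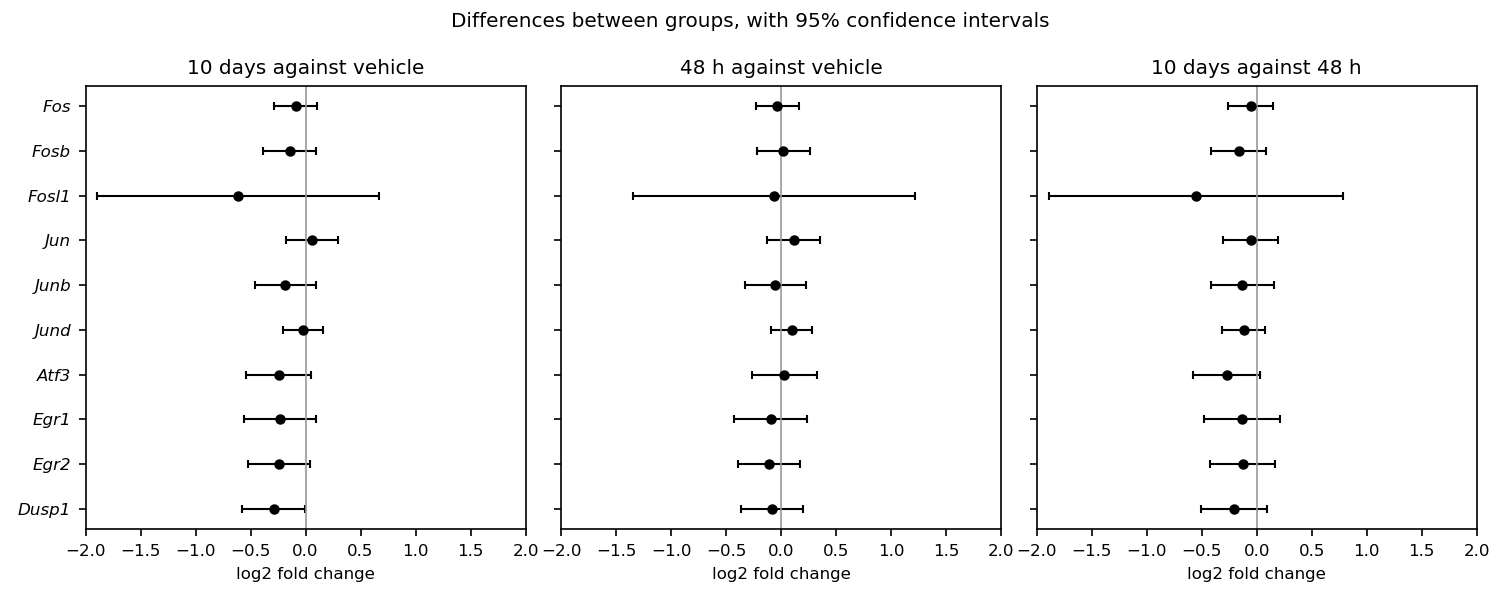
Log2 fold change of each gene (points) with its 95% confidence interval (bars) for the 3 comparisons, each 0 at no difference. Every interval but that of Dusp1 at 10 days against vehicle, which ends at -0.0033, includes 0, and that of Fosl1 is several times wider than the others.

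Within the 10 day group, the 2 arrays on slide 2 averaged lower than the 3 on slide 1 for all 10 members. Fosb, Junb and Jund averaged 5.33, 4.10 and 4.11 on the slide 1 arrays, against 5.32, 4.09 and 4.08 in vehicle, and Jun averaged 3.64 there, against 3.43 in vehicle. These vehicle means cover all 6 vehicle arrays, of which 1 is on slide 1. The other 6 members averaged lower on the slide 1 arrays at 10 days than their means over all vehicle arrays. Among these, Egr2, Dusp1 and Fos had 10 day means of 3.54, 3.69 and 4.88 there, against 3.75, 3.87 and 4.96 in vehicle. Against the 1 vehicle array on slide 1, Fosl1 averaged higher at 10 days there, -1.23 against -1.28, and Junb lower, 4.10 against 4.13. By the brightest probe of each gene, replicate 4 was the lowest of all 16 arrays for 9 of 10 members, Fos being the exception. Without replicate 4 the median log2 fold change of the members against vehicle was -0.11, with 8 of 10 lower. Each member was also turned into a z-score over the 16 arrays and averaged, a score that describes an array and is given no test. The score was 0.26, 0.37 and -0.34 for the 3 slide 1 arrays at 10 days, and -2.07 and -0.73 for the 2 on slide 2. It ran from -0.20 to 0.52 at 48 h and from -0.61 to 0.92 in vehicle, where the slide 1 array was at 0.28 and the 5 on slide 2 averaged 0.22. Within slide 1 the median log2 fold change of the members at 10 days was -0.05 against its 1 vehicle array, where the median of all genes was 0.13, and within slide 2 it was -0.41, where the median of all genes was -0.05. With slide as a term in the model it was -0.27, and 10 of 10 members were lower, none past the threshold. What sets the 2 arrays apart was not tested.

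Marker genes of several cell types also differed between these arrays. The mean of the 12 ductal and tumour epithelium markers ran from -1.10 to 0.92 at 10 days, with -0.80 and -1.10 on replicates 4 and 5, from -1.15 to 1.61 at 48 h and from -0.23 to 1.83 in vehicle. All 12 of these markers had lower values at 10 days than in vehicle, 0 of them past the threshold, with a median log2 fold change of -0.52. The mean of the 15 acinar markers, digestive enzymes of the exocrine pancreas, ran from -0.01 to 2.25 at 10 days, from 1.73 to 2.18 at 48 h and from 0.18 to 1.84 in vehicle; replicate 4 held the lowest value. Granulocyte markers averaged -1.40 ± 0.58 at 10 days (SD, n = 5), -0.97 ± 0.66 at 48 h (SD, n = 5) and -0.57 ± 0.46 in vehicle (SD, n = 6), and macrophage markers averaged 3.61 ± 0.06 at 10 days, 3.63 ± 0.09 at 48 h and 3.51 ± 0.10 in vehicle, with the same n. Their part in the members' values was not tested. The 10 heat shock genes averaged 1.83 ± 0.17 at 10 days (SD, n = 5), 1.79 ± 0.30 at 48 h (SD, n = 5) and 1.87 ± 0.29 in vehicle (SD, n = 6), with 1.99 and 1.96 on replicates 4 and 5 at 10 days.

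**Figure D3:**
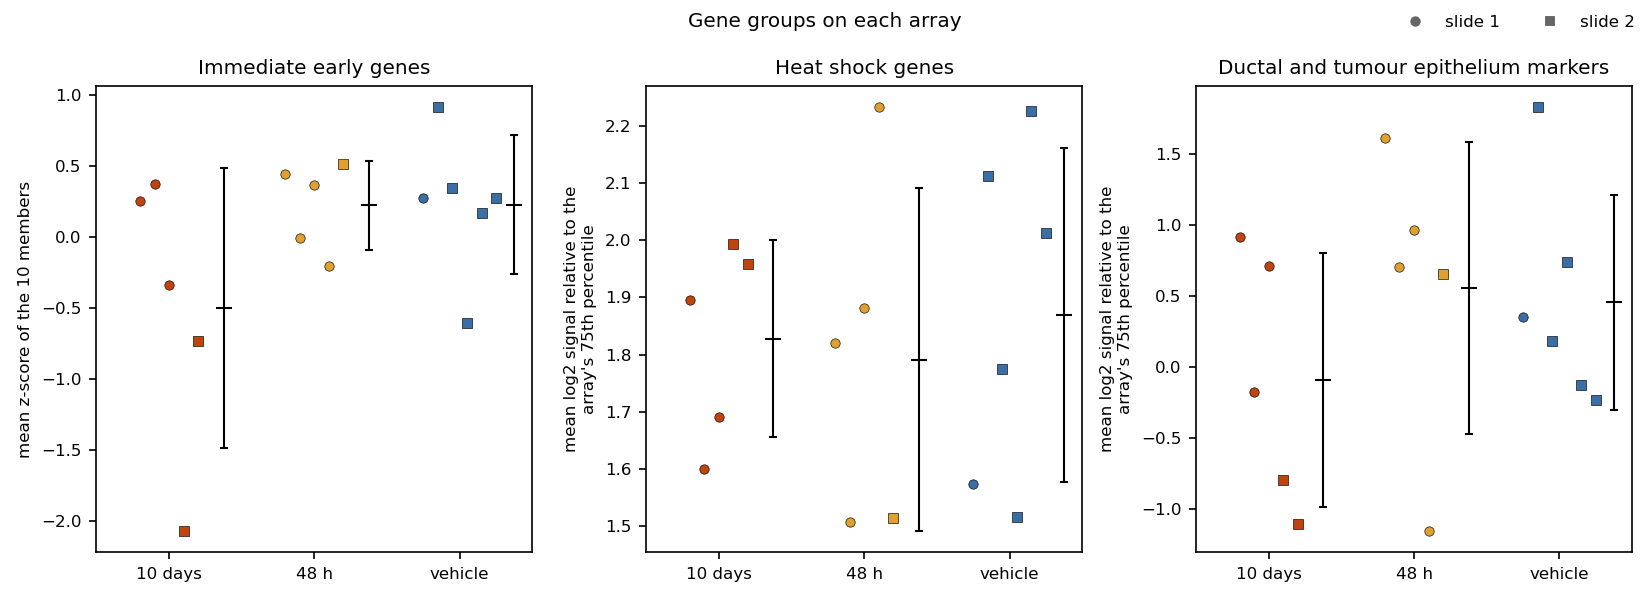
Left, mean z-score of the 10 members on each array; middle and right, mean log2 signal of heat shock genes and of ductal and tumour epithelium markers. Circles are slide 1, squares slide 2, and bars mean and SD; 10 day replicate 4 has the lowest member score, -2.07, and a heat shock mean of 1.99.

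The members varied together across arrays, and mostly on slide 2. Of 45 pairs, 43 had a positive r over 16 arrays, with a median r of 0.442 and a median Spearman's rho of 0.321, and the median r was 0.407 after each group's mean was removed. All values of an array share its scaling. The pairs with the highest r were Egr1 with Dusp1 (r = 0.822, rho = 0.774), Junb with Atf3 (r = 0.821, rho = 0.603) and Atf3 with Egr1 (r = 0.780, rho = 0.738). Fos with Jun, the namesakes of AP-1, had the lowest r, -0.095, and Jun with Egr2 was at -0.032. On slide 2 all 45 pairs were positive with a median r of 0.617, while on slide 1 25 of 45 were positive with a median of 0.096, from 8 arrays each. Without 10 day replicate 4, which lies on slide 2, the median over both slides was 0.226, with 33 pairs positive. Without the 2 arrays farthest from the median of the first gene of each pair it was 0.201. Slide 2 alone was not examined without replicate 4. Egr1 with Dusp1 held at r = 0.754 on slide 1, 0.874 on slide 2, 0.760 without replicate 4 and 0.822 without the 2 farthest arrays. Junb with Atf3 stood at 0.415 on slide 1, 0.886 on slide 2 and 0.462 without the 2 farthest arrays, by the brightest probe of Junb.

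**Figure D4:**
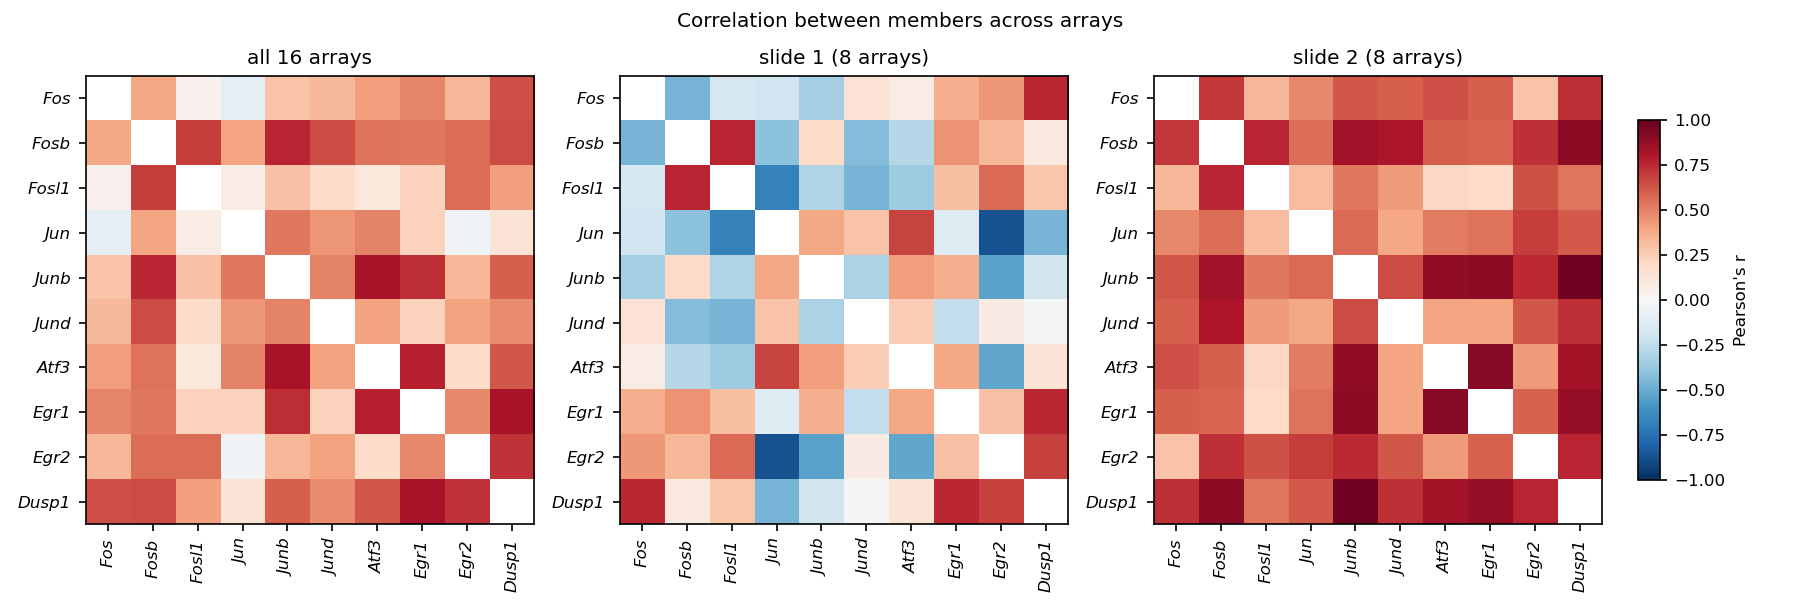
Pearson's r between the 10 members (colour, from -1 in blue to 1 in red; rows and columns are genes) over all 16 arrays, over slide 1 and over slide 2. All 45 pairs are positive on slide 2 and 25 of 45 on slide 1.

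Genes were ranked by how closely they followed the members. The 20909 genes searched were tested genes with a matched name and a value on all 16 arrays. Leaving out the members, the highest r with the members' score was that of Cd83, a surface protein of activated antigen presenting cells, at 0.930. Zfp36, which encodes an RNA decay factor, followed at 0.908, then the chemokine binding receptor Ccrl2 at 0.891, the NF-kB inhibitor Tnfaip3 at 0.887 and the antiproliferative Btg2 at 0.882. The median over all 30521 tested genes with a value on every array was 0.047, with 5th and 95th percentiles of -0.384 and 0.473. For single members the closest gene was Scn8a for Fos (r = 0.876), Ccrl2 for Fosb (0.896), Prrt4 for Fosl1 (0.943), Dbp for Jun (0.869), Btg2 for Junb (0.873), Mageb16 for Jund (0.823), Ccdc61 for Atf3 (0.875), Dusp1, itself a member, for Egr1 (0.822), Nfil3 for Egr2 (0.860) and Cd83 for Dusp1 (0.852). In the deposited table Mageb16 and Jund were at r = 0.369. All these genes were picked for the highest r among 20909 genes over only 16 arrays. Such picks can be high without any link between the genes, and none was tested. The r of single genes with the score was not computed by slide or without 10 day replicate 4, which had the lowest score, -2.07.

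The score was also set beside the means of other gene groups. Over 16 arrays r was 0.758 with the mean of 27 other immediate early genes (rho = 0.588; 0.778 on slide 1 and 0.784 on slide 2), and 0.690 without 10 day replicate 4. The EGR, NAB and NR4A genes followed at 0.728 (rho = 0.288; 0.296 and 0.766), but at 0.189 without that array. ERK feedback genes were at 0.652 (rho = 0.647; 0.837 and 0.639) and at 0.608 without it. The other DUSP genes were at 0.636 (rho = 0.503; 0.659 and 0.644) and at 0.386 without it. With AP-1 target genes r was 0.446 (rho = 0.394) and with the other AP-1 bZIP genes 0.281 (rho = 0.071), where it was -0.076 without replicate 4. With the MAP kinases, SRF and its partners it was -0.132 (rho = -0.097) and -0.045 without replicate 4, and with heat shock genes -0.079 (rho = -0.132) and 0.097. Among cell type markers, the ductal and tumour epithelium mean had r = 0.581 (rho = 0.497; 0.440 on slide 1 and 0.668 on slide 2) and 0.544 without replicate 4. Acinar markers had 0.448 (rho = 0.447; -0.244 and 0.577) and 0.149 without it. T and NK cell markers had 0.367 (rho = 0.576; 0.788 and 0.419) and 0.456 without it. Granulocyte markers were at 0.194 (rho = 0.191; 0.664 and 0.154), macrophage markers at 0.138 (rho = 0.041), or 0.062 without replicate 4, and the other 5 marker groups between -0.241 and 0.077.

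Fosl1 had the highest r of the members with the epithelium markers. Its r with the ductal and tumour epithelium mean was 0.803 (rho = 0.853), with 0.816 on slide 1, 0.775 on slide 2 and 0.851 without the 2 arrays farthest from the median of that mean. With granulocyte markers it was 0.696 (rho = 0.803), with 0.753 on slide 1 and 0.817 on slide 2. Fosl1 followed other lists about as closely, with r of 0.792 for the other DUSP genes, 0.751 for AP-1 target genes and 0.746 for ERK feedback genes. With B cell markers its r was -0.590. Fosb was next, at 0.756 with the epithelium mean (rho = 0.700), while Jun was at 0.146 and Jund at 0.138. Within each slide Fosb was above Fosl1, at 0.907 on slide 1 and 0.801 on slide 2. These relations are among 180 of members with gene groups that were computed, and the difference between members was not tested.

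**Figure D5:**
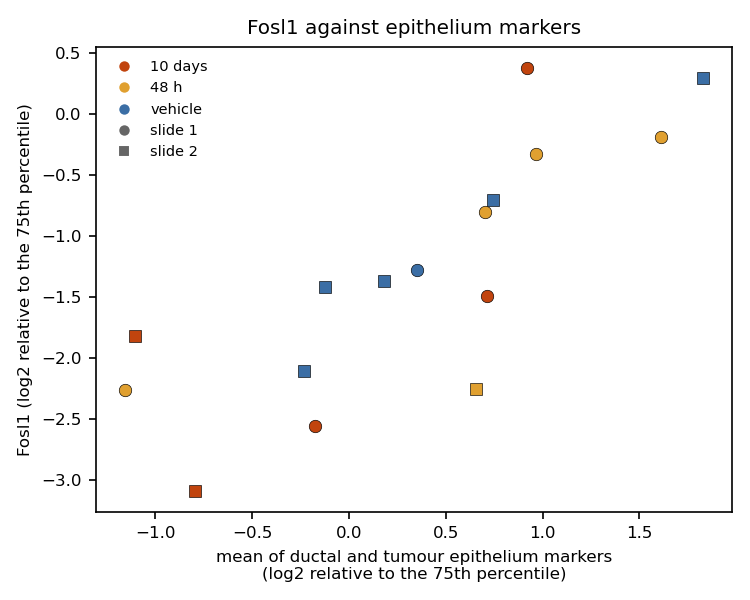
Fosl1 on each array (vertical axis) against the mean of 12 ductal and tumour epithelium markers (horizontal axis), both as log2 signal relative to the array's 75th percentile. Colours are groups and shapes slides; the 16 arrays follow a rising course with r = 0.803 across all groups.

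Genes measured by several probes gave unequal pictures. The 2 probes of Fosb, 1978 bases apart, varied together at r = 0.762, and the 2 of Jund, 134 bases apart, at r = 0.773. Those of Junb did not: the brightest and the one 1038 bases from it had r = -0.061, and the brightest and the last, which the files annotate to the transcript AK044253 and which lies 5246 bases away at chr8:87496635-87496694, had r = -0.358. That AK044253 probe averaged 1.03 ± 0.53 at 10 days (SD, n = 5), 0.35 ± 0.73 at 48 h (SD, n = 5) and 0.86 ± 0.52 in vehicle (SD, n = 6), a log2 fold change of 0.68 ± 0.36 (SE) at 10 days against 48 h, where the brightest probe had -0.13 ± 0.14 (SE). Adjusted over 46088 probes in limma, p was at least 0.9999 for all 7 probes of these 3 genes in each comparison.

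Other genes of the pathway gave the same count of calls, 0 past the threshold in each list and comparison. For comparison with the counts below, 52% of all genes were lower at 10 days than in vehicle, and 53.3% at 48 h. Of the 12 other AP-1 bZIP genes, 6 were lower and 6 higher at 10 days than in vehicle, with a median log2 fold change of -0.01. Maff, a small MAF protein, had -0.41 ± 0.26 (SE), Maf 0.18 ± 0.12 (SE) and Atf2, a CREB-like partner of JUN, 0.13 ± 0.09 (SE). All 6 measured genes of the EGR, NAB and NR4A group were lower at 10 days, with a median of -0.13, among them Egr3 at -0.43 ± 0.32 (SE) and the orphan nuclear receptors Nr4a2 at -0.13 ± 0.11 (SE) and Nr4a3 at -0.13 ± 0.25 (SE). At 48 h 3 of these 6 were lower and 3 higher.

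Among 10 other DUSP phosphatases 7 were lower at 10 days, with a median of -0.18. At 10 days their mean was 0.58, 0.42 and 0.31 on slide 1 and -0.09 and 0.17 on replicates 4 and 5. The vehicle mean was 0.42. Dusp5, a nuclear phosphatase of ERK, measured 2.61 ± 0.35 at 10 days (SD, n = 5), 2.77 ± 0.27 at 48 h (SD, n = 5) and 3.01 ± 0.08 in vehicle (SD, n = 6), and Dusp4, another nuclear one, had a log2 fold change of -0.46 ± 0.23 (SE) at 10 days against vehicle. Dusp7, a cytoplasmic phosphatase of ERK, measured 2.12 ± 0.10 at 10 days (SD, n = 5), 2.05 ± 0.23 at 48 h (SD, n = 5) and 1.84 ± 0.15 in vehicle (SD, n = 6). Unadjusted limma p at 10 days was 0.0203 for Dusp5 and 0.0282 for Dusp7, in opposite directions, and neither passed after adjustment.

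Of 27 other immediate early genes 20 were lower at 10 days, with a median of -0.12, and 11 at 48 h, with a median of 0.02. At 10 days their mean was 2.38, 2.28 and 2.18 on slide 1 and 1.85 and 1.78 on replicates 4 and 5. The vehicle mean was 2.23. Gadd45g, a growth arrest gene, had a log2 fold change of 0.38 ± 0.13 (SE) at 10 days and -0.08 ± 0.13 (SE) at 48 h, the kinase gene Sgk1 had -0.37 ± 0.14 (SE) and -0.07 ± 0.14 (SE), and the antiproliferative Btg1 had -0.21 ± 0.11 (SE) and 0.02 ± 0.11 (SE). Of 20 genes for MAP kinases, SRF and its partners 10 were lower at 10 days, with a median of -0.00099; Rps6ka5, which encodes the kinase MSK1, had -0.06 ± 0.14 (SE) at 10 days and -0.35 ± 0.14 (SE) at 48 h, Map2k6 -0.19 ± 0.14 (SE) and 0.18 ± 0.14 (SE), and Elk4, a ternary complex factor, 0.08 ± 0.15 (SE) and 0.22 ± 0.15 (SE). In the ERK feedback list 5 of 7 tested genes were lower at 10 days, with Spry1 at -0.50 ± 0.26 (SE), Errfi1 at -0.28 ± 0.27 (SE) and Spred1 at 0.18 ± 0.12 (SE). The mean of this list at 10 days was 0.29, 0.26 and 0.07 on slide 1 and -0.12 and -0.05 on replicates 4 and 5. In vehicle it was 0.26.

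All 11 tested genes of the AP-1 target list were lower at 10 days than in vehicle, with a median log2 fold change of -0.17, and 7 of 11 were lower at 48 h. Ptgs2, the inducible cyclooxygenase, measured 1.40 ± 0.29 at 10 days (SD, n = 5), 1.72 ± 0.32 at 48 h (SD, n = 5) and 1.94 ± 0.18 in vehicle (SD, n = 6), with a log2 fold change of -0.54 ± 0.16 (SE) at 10 days. Plaur, the urokinase receptor, had -0.43 ± 0.21 (SE) and Ccnd1, cyclin D1, -0.32 ± 0.16 (SE) at 10 days. Of the 10 heat shock genes 7 were lower at 10 days and 9 at 48 h, with medians of -0.07 and -0.04. Hspb1 had -0.63 ± 0.53 (SE) at 10 days, and the chaperone genes Hsph1 and Dnaja1 had -0.39 ± 0.24 (SE) and -0.17 ± 0.15 (SE) at 48 h.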

How the data were processed

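Total RNA from 16 tumour samples was amplified as cDNA, labelled with Cy5 and hybridised to 1-colour Agilent mouse arrays, per the labels' protocols. The submitters' processing notes name Agilent Feature Extraction 11.5.1.1 for image quantification. The scanner files deposited by the authors give each spot's intensity on a linear scale, background-subtracted per the file headers, with probe positions on mm9. A second deposited file holds log2 values; its sorted columns differ by at most 0.0043, as after quantile normalization, and follow their own arrays at r of 0.998 or more.

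From each of 62976 spots the 3671 controls were left out, as were 1692 outlier spots over all arrays. Log2 processed signal was averaged per probe, less the 75th percentile of all probes on that array. Probes were named through RefSeq accessions on GRCm38.p6 (32994 probes) or symbols (10747), and 12864 kept the name in the files. A gene is its brightest probe, tested where well above background on at least 5 of 16 arrays. Groups came from the treatment and time labels, and replicate numbers only name arrays. Limma 3.58.1 in R 4.3.3 fitted the 3 groups without covariates, with robust eBayes and Benjamini-Hochberg adjustment at 0.05, and was tested on simulated data.

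Alternatives were the deposited table, normexp background correction (offset 50), another percentile, filters, slide as a term or each slide alone, all probes of a gene, fewer groups or arrays, and an intensity trend. Named genes are all members, up to 3 genes per list with the smallest p against vehicle, and the genes with the highest r. The members and lists were chosen with earlier results of these data known. The precision is limited by the number of arrays.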

Additional observations from a re-analysis of the deposited data

Results flagged for a closer look

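Of 42 sets of arrays of 1 probe in 1 group, 4 held an array far from the others by Dixon's ratio, and chance flags about 1 in 20 such sets. Atf3 was at 3.87 on vehicle replicate 6, where the nearest vehicle array was at 3.59. Fos was at 5.11 on vehicle replicate 2, where the nearest was at 4.96. The brightest Fosb probe was at 5.19 on 48 h replicate 4, below a nearest value of 5.37. The Junb probe annotated to AK044253 was at -0.93 on the same array, where the nearest 48 h array was at 0.54.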

How the results depend on the processing

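Under each alternative run, 0 of the 10 members passed in each comparison, with a lowest adjusted p of 0.49 at 10 days against vehicle, 0.836 at 48 h against vehicle and 0.746 at 10 days against 48 h. No paired analysis was possible because the labels give no replicate numbers. The members' median log2 fold change at 10 days against vehicle was -0.050 within slide 1 and -0.41 within slide 2, and at 10 days against 48 h it was -0.0096 within slide 1 (3 and 4 arrays) and -0.39 within slide 2 (2 arrays and 1). When single arrays were left out, the median ran from -0.25 to -0.11 at 10 days against vehicle, from -0.05 to 0.02 at 48 h against vehicle and from -0.20 to -0.064 at 10 days against 48 h, and the count that passed stayed at 0. Of 240, 240 and 230 values of single members under alternatives, 232, 217 and 222 kept their sign at 10 days against vehicle, 48 h against vehicle and 10 days against 48 h. These counts include settings that cannot change a fold change: the filters, the intensity trend, the fit of 2 groups alone and the permutation test. Values under those settings keep their sign by construction.

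Signs turned for the values below, and the cause was not tested; within a slide each comparison rests on few arrays. In the deposited table the 48 h value against vehicle was -0.0026 for Fosb and -0.019 for Atf3. With slide as a term, Jun was at -0.043 at 10 days against vehicle, and at 48 h against vehicle Fosb was at -0.063, Fos at 0.019, Atf3 at -0.069 and Jun at -0.035. Within slide 1, Fosb was at 0.061, Jund at 0.046 and Fosl1 at 0.058 at 10 days against vehicle, Egr2 at 0.035, Atf3 at -0.055 and Fosl1 at 0.39 at 48 h against vehicle, and Fos at 0.031, Junb at 0.080, Jun at 0.064 and Egr1 at 0.069 at 10 days against 48 h. Within slide 2, Jun was at -0.15 at 10 days, and at 48 h Fos was at 0.25, Junb at 0.013, Dusp1 at 0.083 and Egr1 at 0.098, all against vehicle. The mean of the 3 Junb probes gave 0.17 at 10 days against 48 h. Without the 2 samples sharing an ID number, Atf3 was at -0.042 and Fosl1 at 0.48 at 48 h against vehicle, and Fos at 0.016 at 10 days against 48 h. With single arrays left out, Jun ran from -0.0075 to 0.13 and Jund from -0.054 to 0.029 at 10 days against vehicle. At 48 h against vehicle Fos ran from -0.11 to 0.0034, Fosb from -0.016 to 0.071, Atf3 from -0.024 to 0.091 and Fosl1 from -0.31 to 0.21. At 10 days against 48 h Fos ran from -0.092 to 0.016 and Jun from -0.12 to 0.013. Dusp1 at 10 days against vehicle ran from -0.36 to -0.21, and its exact permutation p was 0.0649.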
